A study of Mus musculus with 8 samples.

Results

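The 9 genes described here, Spi1, Maf, Spic, Klf4, Irf4, Irf8, Cebpb, Batf3 and Tcf4, encode transcription factors known for roles in the monocyte, macrophage and dendritic cell (DC) lineages. They were taken by symbol from the 55450 genes of a single-cell RNA sequencing matrix of mouse liver, and each symbol matched 1 gene. On GRCm38 they lie at chr2:91082390-91115756 (Spi1, plus strand), chr8:115682942-115707794 (Maf, minus), chr10:88674772-88685015 (Spic, minus), chr4:55527143-55532466 (Klf4, minus), chr13:30749226-30766976 (Irf4, plus), chr8:120736358-120756694 (Irf8, plus), chr2:167688915-167690418 (Cebpb, plus), chr1:191097847-191108945 (Batf3, plus) and chr18:69343356-69689079 (Tcf4, plus). Liver cells of 8 C57BL/6 mice of wild-type genotype were measured in 8 droplet libraries, 1 per mouse. The 2 control mice were given a normal diet and drinking water. The other mice served as models of nonalcoholic steatohepatitis (NASH) with fibrosis: 3 received a high-fat diet, fructose solution and intraperitoneal CCl4 (HFD+F+CCl4), and 3 a western diet with the same 2 additions (WD+F+CCl4). CCl4 is a liver toxin that drives fibrosis, so diet, fructose and toxin cannot be told apart in either model. The sources used here give neither ages nor what mice with the same replicate number shared, and p-values measure the spread between these mice. Levels are given in CPM, the unique molecular identifier (UMI) counts of a gene per 1000000 UMIs of the named cells of 1 mouse. Levels were compared between cells and between mice for 1 gene at a time and never between genes.

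Of 88581 barcodes, 80474 had more than 500 genes and under 25% mitochondrial UMIs and were kept. Control replicate 2 stood apart by depth, with a median of 992.5 UMIs per kept cell against 2397 in control replicate 1 and 3159 to 4278 in the NASH mice. Among the kept cells, 1467 carried a barcode sequence that also occurred in another library. Monocyte, macrophage and DC cells, named the MMD cells below, numbered 1084 and 724 in the control mice and between 6698 and 7830 in each NASH mouse. They were clustered again without the 9 genes, control and NASH mice separately, and 11 types were named from markers. A type with the same name in control and NASH mice is therefore a set of different clusters, and 2719 MMD cells took no name.

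Levels of some of the naming markers describe the types. They are no test of the names, which were given from them. Clec4f, a Kupffer cell receptor, lay between 217 and 1725 CPM in Kupffer cells, and Trem2, a lipid receptor, between 698 and 1076 CPM in lipid-associated macrophages. Treml4 lay between 340.0 and 656 CPM in patrolling monocytes, Siglech between 2539.5 and 3835 CPM in plasmacytoid DC, Xcr1 between 311 and 689 CPM in type 1 DC, and Ccr7 between 638 and 1165 CPM in mature DC. In 3 types the control and NASH cells of the name differed in marker genes. The control cells called Cxcl9 Cxcl10 macrophages had 11.6 and 0 CPM of C1qa, a complement gene of macrophages, against 1056 to 2221 CPM in the NASH mice, and 1091 and 1202 CPM of the monocyte gene Ly6c2 against 34.7 to 233 CPM. Cycling cells of the control mice held 471 and 167 CPM of Xcr1 against at most 2.50 CPM in the NASH mice. Type 2 DC of the control mice held 179 and 122 CPM of Siglech against at most 80.0 CPM in the NASH mice. No control cells took the names of Kupffer cells, lipid-associated macrophages or C1q macrophages. A control cluster led by C1qb, C1qa, C1qc and Clec4f, of 27 and 3 cells, met no name and is not counted among the macrophage types.

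Monocytes, macrophages and DC arise from shared progenitors, and which of them forms depends on combinations of transcription factors. Spi1 encodes PU.1, the factor on which the whole myeloid branch depends, Cebpb and Klf4 are known from monocytes, Maf and Spic from resident macrophages, and Irf8, Batf3, Irf4 and Tcf4 from the branches of DC. In the liver the resident macrophages are Kupffer cells, and in NASH monocytes from the blood enter and become macrophages.

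Spi1 was present in every type and was highest in monocytes. Its level in patrolling monocytes, the nonclassical cells that crawl along vessel walls, ran from 753 to 1179.9 CPM with a median of 947 CPM over 7 mice. The next in order were classical monocytes, with a median of 666 CPM, Cxcl9 Cxcl10 macrophages with 645 CPM and type 2 DC with 550.2 CPM, and the ranges of each pair of neighbours overlapped. Plasmacytoid DC were at the bottom of the order, from 33.5 to 318 CPM with a median of 167 CPM. In T and NK cells of the same mice, set beside the types for comparison, Spi1 lay between 25.1 and 229 CPM. This was not far below plasmacytoid DC of the same mouse, which were the higher in each of the 8 mice. For no gene are such levels a measure of free RNA, since T and NK cells were not tested for transcripts of their own. Irf4 in lipid-associated macrophages, at most 5.20 CPM, lay below the T and NK median. Depth differed too, with median UMIs of 2922 in T and NK cells and 7827 in type 1 DC of control replicate 1. The genes most like Spi1, by Pearson correlation of log2(CPM + 1) over 78 profiles of 1 type in 1 mouse, included Tmem51 (r = 0.88) and Lfng (0.87). Profiles of a mouse share a library and depth, so this and the other likeness values are descriptions.

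Maf, a large Maf protein known to restrain proliferation of macrophages, and Spic, a PU.1 relative known from iron-recycling macrophages, were both highest in Kupffer cells. Maf had medians of 949 CPM in Kupffer cells, 929 CPM in lipid-associated macrophages and 878 CPM in C1q macrophages, with ranges that overlapped, and then 379 CPM in cycling cells. Type 2 DC had the lowest median, 49.6 CPM. The first 3 places thus belonged to macrophage types, and the order of Kupffer cells and lipid-associated macrophages was exchanged without HFD+F+CCl4 replicate 1. Spic was 107, 60.9 and 45.3 CPM in Kupffer cells of the HFD+F+CCl4 mice and 56.8 and 89.9 CPM in those of WD+F+CCl4 replicates 2 and 3, from between 17 and 592 UMIs per mouse. WD+F+CCl4 replicate 1 had 15 Kupffer cells, under the limit of 20, and was not used there. Every one of these values was above the highest value of the next type, patrolling monocytes, at 37.7 CPM, and the ratio of the 2 medians was 2.21. Lipid-associated macrophages held 5.33 to 15.5 CPM of Spic, below all Kupffer values, although their Maf ranges overlapped. The genes most like Maf were Ctsc (r = 0.89), Sdcbp (0.89) and Selenop (0.89), and those most like Spic were Sh3glb1 (0.84), Lilra5 (0.82) and Sat1 (0.80).

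Cebpb, which encodes C/EBP beta, a factor known to keep patrolling monocytes alive, was highest in these cells by median. Its level ran from 1115 to 2166 CPM in patrolling monocytes with a median of 1802 CPM, followed by classical monocytes with an overlapping range of 285 to 1485 CPM and a median of 940.2 CPM and Cxcl9 Cxcl10 macrophages with 724 CPM. Kupffer cells, C1q macrophages and lipid-associated macrophages followed with medians of 448, 336 and 295 CPM, and all 4 DC types had medians at or below 132 CPM. T and NK cells held up to 277 CPM of Cebpb, and the plasmacytoid DC lay above them in 4 of 8 mice, the type 1 DC in none. Gda (r = 0.92), Clec4a3 (0.91) and Nfe2l2 (0.90), the last a regulator of the response to oxidative stress, were most like Cebpb.

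Klf4, a zinc finger factor known from monocyte differentiation, was also highest in patrolling monocytes, with a range of 270 to 918 CPM and a median of 314 CPM. Type 2 DC had a median of 213 CPM and classical monocytes one of 193 CPM, with overlapping ranges. Klf4 was low by median in C1q macrophages at 20.9 CPM, lipid-associated macrophages at 16.8 CPM and Kupffer cells at 13.4 CPM. These medians were below that of T and NK cells, 26.7 CPM. Cxcl9 Cxcl10 macrophages had a higher median of 51.5 CPM. The 3 types lowest in Klf4 were thus the 3 highest in Maf. Nr4a1 (r = 0.78), Ier2 (0.76) and Stk38 (0.75) were most like Klf4, and the first 2 are immediate early genes.

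Irf8, an interferon regulatory factor on which type 1 DC depend and which is abundant in plasmacytoid DC, separated these 2 types from all others. Plasmacytoid DC held 2319.7 to 4018 CPM with a median of 3473 CPM, and type 1 DC held 1782 to 2295 CPM with a median of 2142 CPM. The 2 ranges did not meet, and the next type, Kupffer cells, had a median of 368 CPM, so that type 1 DC stood 5.83-fold above it by medians. Single mice came closer, the highest value outside the 2 types being 1622 CPM in cycling cells of control replicate 1. Type 2 DC came last with a median of 125 CPM. Fcrla (r = 0.87), Cxcr3 (0.87) and Cldnd1 (0.80) were most like Irf8. Because Irf8 is known as a target of interferon-gamma signalling, its promoter was searched for the letters TTCNNNGAA, the core of the site bound by STAT factors, which reads the same on both strands. The 250 bases before the RefSeq start (chr8:120736108-120736357, plus strand, RefSeq on GRCm38.p6) hold 2 matches, shown in capitals.

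Irf8 promoter: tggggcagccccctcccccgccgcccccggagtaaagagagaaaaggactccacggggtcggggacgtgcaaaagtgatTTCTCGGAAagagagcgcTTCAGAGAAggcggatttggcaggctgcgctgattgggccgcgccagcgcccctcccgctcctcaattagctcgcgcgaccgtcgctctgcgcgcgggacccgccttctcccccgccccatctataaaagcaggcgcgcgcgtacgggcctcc

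Of the 32851 promoters in the table, 7.02% hold at least 1 match in this window and 0.317% hold 2 or more. Of the 7 promoters listed for 6 of the 9 genes, the other one with a match was that of Batf3, with 1. The promoters of Spic, Klf4, Irf4 and Cebpb and a second start of Irf8 held none, which says nothing about binding of a factor. Spi1, Maf and Tcf4 had no entry.

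Batf3, the basic leucine zipper partner of Irf8 in type 1 DC, was highest there, from 217 to 330.3 CPM with a median of 284 CPM. Mature DC, the cells that leave the tissue for lymph nodes, had a range of 167 to 257 CPM and a median of 203 CPM, which overlapped that of type 1 DC. Both stood apart from type 2 DC, next in order with 56.3 to 119 CPM. Patrolling monocytes and plasmacytoid DC had medians of 13.9 and 12.1 CPM, close to the 13.7 CPM of T and NK cells. Plasmacytoid DC were thus high in Irf8 and low in Batf3. Whether T and NK cells hold Batf3 of their own was not tested. The genes most like Batf3 were Fgl2 (r = 0.83), Slamf7 (0.82) and Tspan33 (0.82).

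Irf4, the interferon regulatory factor known from type 2 DC, was highest in that type, from 38.9 to 142 CPM with a median of 56.1 CPM. Mature DC had a median of 33.3 CPM, with an overlapping range, and type 1 DC had the lowest median, 2.84 CPM. By these medians type 2 DC were first in Irf4 and last in Irf8, an order set by the NASH mice. In the control mice type 2 DC held 655 and 549 CPM of Irf8, above classical monocytes with 402 and 372 CPM. In control replicate 2 their Irf4 of 60.9 CPM was below the 175 CPM of Cxcl9 Cxcl10 macrophages. These 2 values rested on 3 and 7 UMIs, too few to order the types in that mouse. The medians of the monocyte and macrophage types over all mice were 3.13 to 13.3 CPM, below the median of 16.6 CPM in T and NK cells. The control mice were above this level, with 49.8 and 47.6 CPM in classical monocytes and 81.0 and 175 CPM in the cells called Cxcl9 Cxcl10 macrophages. The last 2 values rested on 28 and 7 UMIs. Nfkb1 (r = 0.71), 4930523C07Rik (0.70) and Stat5a (0.67) were most like Irf4.

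Tcf4 encodes E2-2, the factor that plasmacytoid DC need to form and to keep their identity. Its level in these cells ran from 2160.2 to 3605 CPM with a median of 2583 CPM, 10.3-fold above the median of type 2 DC, the next in order at 249.8 CPM. No other type reached this range, the highest value elsewhere being 710.4 CPM in type 2 DC of control replicate 1. Atp1b1 (r = 0.92), Dnajc7 (0.91) and Sh3bgr (0.90) were most like Tcf4. In the plot of levels by type, Irf8 has 2 types and Tcf4 has 1 type apart from the rest. Batf3 has no such gap, since cycling cells reach 266 CPM and Cxcl9 Cxcl10 macrophages 250.4 CPM, within its range in type 1 DC. Irf4 has none either, its ranges in type 2 DC and mature DC overlapping.

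**Figure D1:**
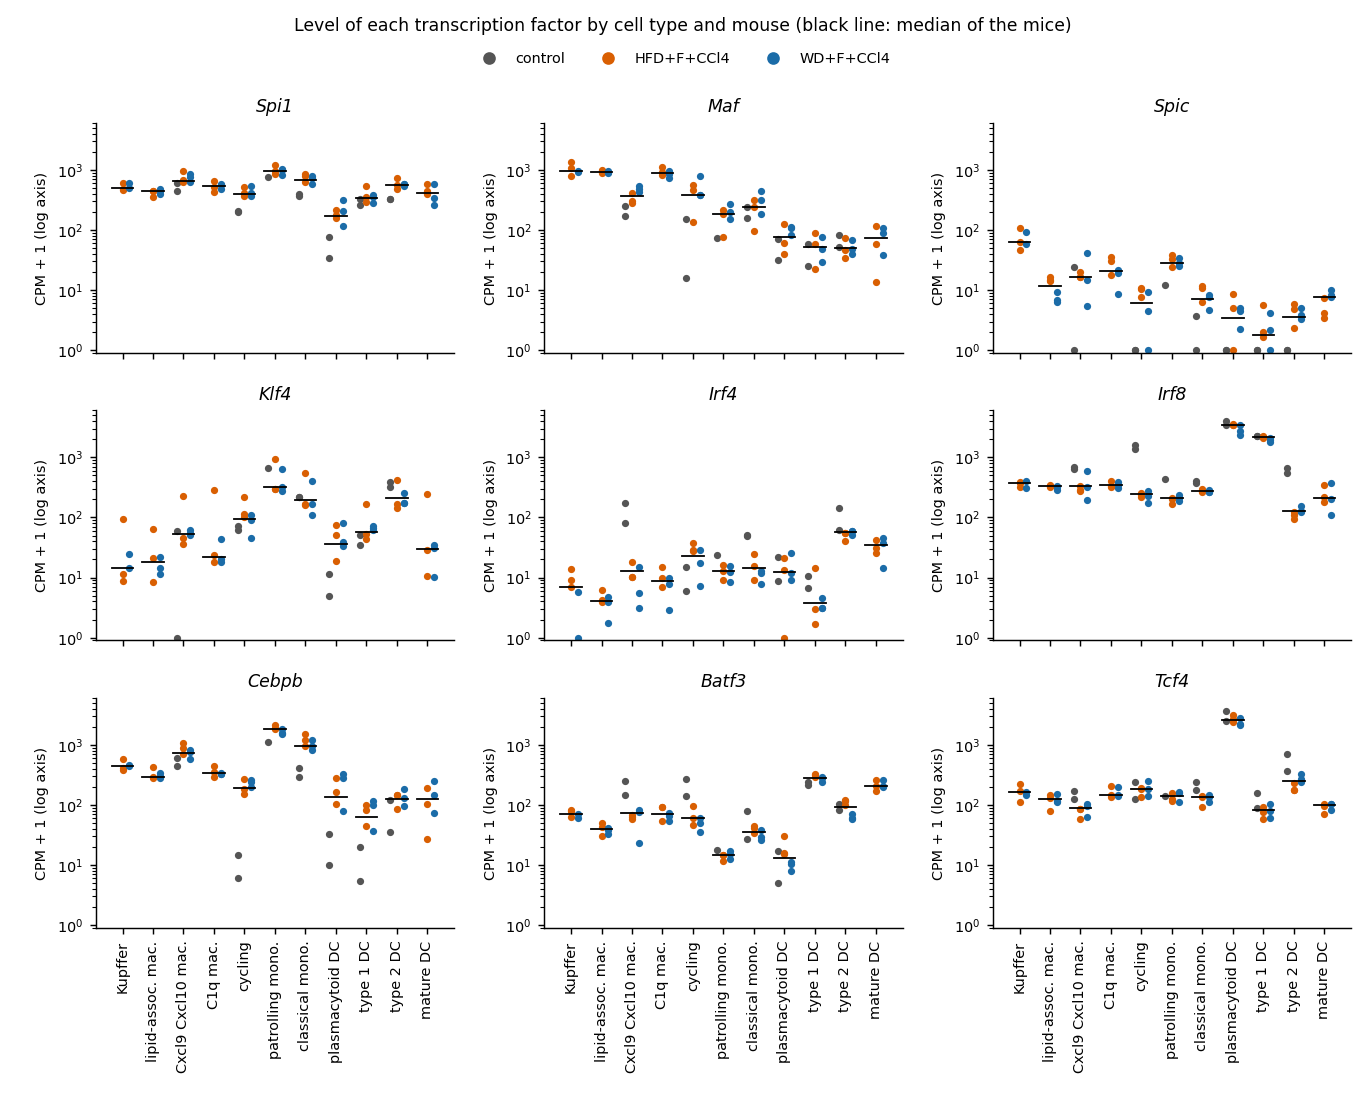
Level of each of the 9 transcription factors (CPM + 1, log axis) in the 11 named monocyte, macrophage and DC types, with 1 point per mouse that had at least 20 cells, coloured by group, and a black line at the median of the mice. Irf8 and Tcf4 peak in plasmacytoid DC at medians of 3473 and 2583 CPM, Batf3 in type 1 DC at 284 CPM, Maf and Spic in Kupffer cells at 949 and 60.9 CPM, and Cebpb, Spi1 and Klf4 in patrolling monocytes at 1802, 947 and 314 CPM.

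Several of the factors were not particular to the myeloid cells of these livers. Maf was higher in endothelial cells, from 539.7 to 3271 CPM over 7 mice, than its median in any myeloid type in 5 of these mice, and T and NK cells, some of which use Maf, held 275 to 827 CPM. Endothelial cells also held 567 to 841 CPM of Tcf4, and B and plasma cells 240.2 to 533 CPM. Neutrophils held 755 to 1056 CPM of Spi1 in the NASH mice and 480.4 CPM in control replicate 1. Cebpb was 303 CPM in neutrophils of this control mouse and between 848 and 1628 CPM in those of the NASH mice.

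The first comparison asks how the factors differed between NASH and control over all MMD cells of a mouse. Over these cells Spi1, Maf, Spic and Cebpb were higher and Irf4, Irf8 and Tcf4 lower in both models. Counts were summed per mouse and tested with edgeR's quasi-likelihood test and Benjamini-Hochberg adjustment over 17511 genes, and a gene was called at an adjusted p under 0.05. With this test 7 of the 9 genes passed in each model, 4 higher and 3 lower. Of all genes tested, 16.2% passed in HFD+F+CCl4 against control (8.55% higher and 7.63% lower) and 20.9% in WD+F+CCl4 against control (10.8% higher and 10.0% lower). The 2 comparisons share the 2 control mice.

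Cebpb was 149.6 and 147 CPM in the control mice, 784, 486 and 912 CPM in the HFD+F+CCl4 mice and 682, 638 and 623 CPM in the WD+F+CCl4 mice. The groups did not overlap, and the log2 fold change was 2.45 ± 0.29 (SE) with an adjusted p of 0.00157 in HFD+F+CCl4 mice and 2.33 ± 0.29 with 0.00179 in WD+F+CCl4 mice. Spi1 was 242 and 243 CPM in the control mice, 731, 464 and 643 CPM in the HFD+F+CCl4 mice and 534, 651 and 554 CPM in the WD+F+CCl4 mice. Every NASH mouse lay above both controls (1.49 ± 0.22 and 1.46 ± 0.22 on the log2 scale, adjusted p of 0.00384 and 0.00331 by edgeR). Maf was 121 and 153 CPM in the control mice, 711, 558 and 217 CPM in the HFD+F+CCl4 mice and 428, 385 and 604 CPM in the WD+F+CCl4 mice. HFD+F+CCl4 replicate 3 was the lowest NASH mouse in Maf. The groups did not overlap, with log2 fold changes of 2.00 ± 0.43 in both models and adjusted p of 0.0166 and 0.0133. Spic rested on few counts in the controls, 14 and 3 UMIs or 2.47 and 2.93 CPM, against 28.7, 18.6 and 13.01 CPM in the HFD+F+CCl4 mice and 6.14, 11.6 and 24.8 CPM in the WD+F+CCl4 mice. It differed by 3.06 ± 0.73 and 2.62 ± 0.73 on the log2 scale, with an adjusted p of 0.0243 and 0.0352 by edgeR.

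Irf8 and Tcf4 were the most reduced. Irf8 was 1680 and 1788 CPM in the control mice, 350.0, 491 and 433 CPM in the HFD+F+CCl4 mice and 424, 343 and 459 CPM in the WD+F+CCl4 mice. Tcf4 was 1061 and 838 CPM in the control mice, 183, 206 and 143 CPM in the HFD+F+CCl4 mice and 247, 224 and 224 CPM in the WD+F+CCl4 mice. For both genes all NASH mice lay below both controls by a wide margin. Irf8 fell by 1.86 ± 0.22 and 1.88 ± 0.22 on the log2 scale (edgeR adjusted p of 0.00158 and 0.00152), and Tcf4 fell by 2.27 ± 0.20 and 1.84 ± 0.20 (0.000562 and 0.00124). Irf4 was 41.2 and 33.2 CPM in the control mice, between 12.6 and 15.8 CPM in the HFD+F+CCl4 mice and between 8.27 and 18.1 CPM in the WD+F+CCl4 mice, and fell by 1.25 ± 0.32 and 1.43 ± 0.32 (0.0318 and 0.0156). Klf4 and Batf3 did not pass by edgeR. Klf4 groups overlapped (87.0 and 128 CPM against 87.1 to 386 CPM), with an adjusted p of 0.257 and 0.521. Batf3 was 92.0 and 93.8 CPM in the control mice, 53.2 to 78.3 CPM in the HFD+F+CCl4 mice and between 32.7 and 52.0 CPM in the WD+F+CCl4 mice, with log2 differences of -0.24 ± 0.27 and -0.84 ± 0.27 and an adjusted p of 0.589 and 0.0576. All NASH mice lay below both controls in Batf3, and DESeq2 called it in WD+F+CCl4 mice (adjusted p = 0.0175).

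The makeup of the MMD cells moved with these sums. DC types together made up 41.3% and 47.0% of the MMD cells of the control mice and 8.98% to 19.3% of those of the NASH mice. Plasmacytoid DC alone, the cells with the highest levels of Irf8 and Tcf4, went from 22.4% and 20.9% to between 0.255% and 5.79%. Macrophage types took 15.8% to 40.4% in the NASH mice. In the control mice they took 6.37% and 3.31%, all of them the cells called Cxcl9 Cxcl10 macrophages, which held little C1qa and much Ly6c2. Patrolling monocytes took 5.44% and 0.967% in the control mice and 20.1% to 40.6% in the NASH mice. The sums also hold MMD cells without a name, 160 of 1084 and 103 of 724 in the control mice. The NASH mice had 234 to 632 such cells among at least 6698 MMD cells each. A control cluster of 80 unnamed cells was led by Siglech, Cox6a2, Cxcr6 and Cd3g, and 1 of 37 by Ebf1, Ms4a1 and Cd79a. The part of the unnamed cells in the sums was not tested. In such sums fewer cells of a type and less RNA per cell cannot be told apart. The part of the makeup was examined only through the levels within types given next. For Maf and Spic this was limited, since Kupffer cells, lipid-associated macrophages and C1q macrophages had no control cells to test against. In classical monocytes neither was called (edgeR adjusted p of 0.852 and 0.329 for Maf, 0.192 and 0.310 for Spic). Within types Maf was called in WD+F+CCl4 mice alone, in Cxcl9 Cxcl10 macrophages and cycling cells. Levels and shares are drawn in the plot of the 9 genes over all MMD cells, and without control replicate 1, which left 1 control mouse, 4 of the 9 genes (Spi1, Cebpb, Irf8 and Tcf4) were called in each model. The calls of Spic and Maf were also lost without control replicate 2 in each model, that of Spic without WD+F+CCl4 replicate 2 in its own model, and that of Irf4 in HFD+F+CCl4 mice without any of the 3 mice of that model or control replicate 2.

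**Figure D2:**
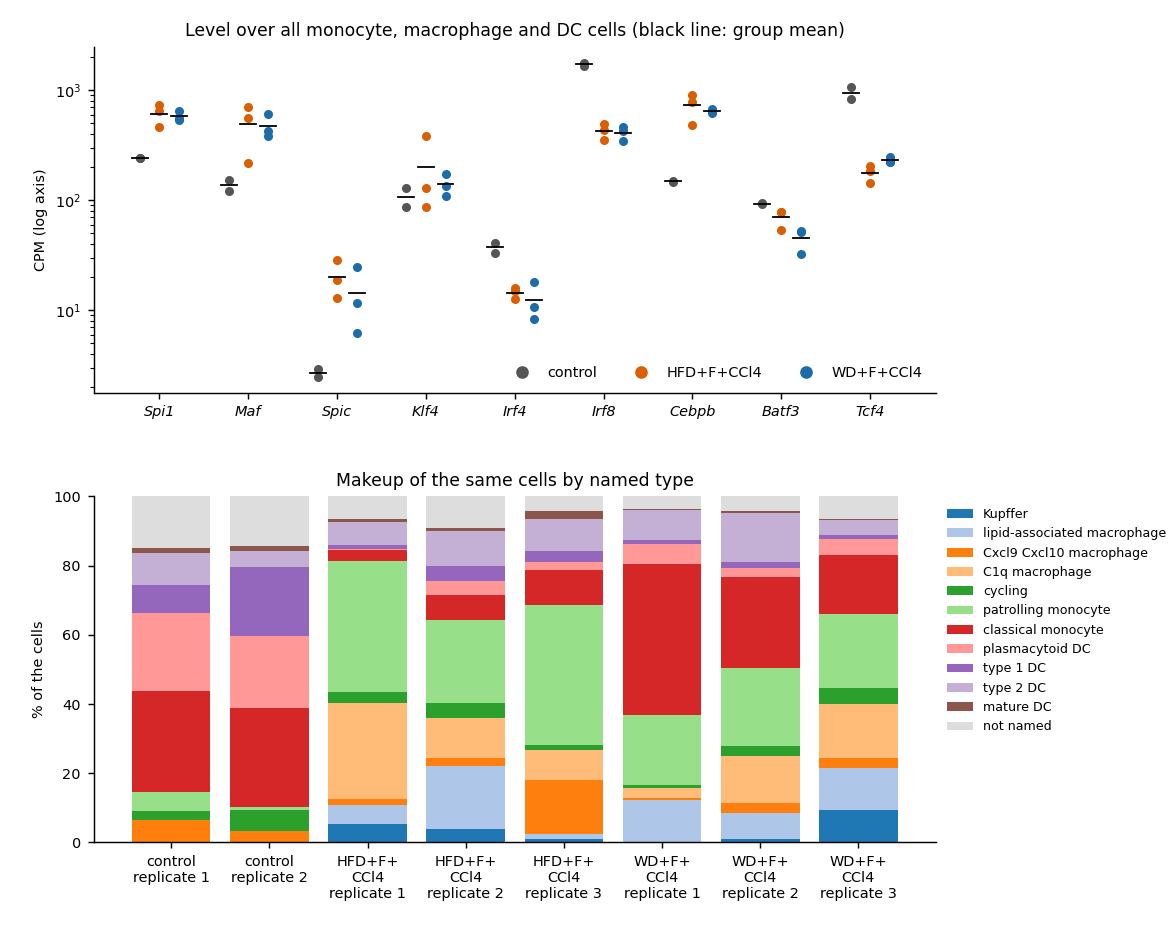
Top: level of the 9 genes over all monocyte, macrophage and DC cells (CPM, log axis), 1 point per mouse, with a black line at each group mean. Bottom: share of the same cells (%) in each named type, 1 bar per mouse. Irf8 lies at 1680 and 1788 CPM in the controls and at most at 491 CPM in the NASH mice, while plasmacytoid DC make up at least 20.9% of the control cells and at most 5.79% of the NASH cells.

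Within types, 6 of the 11 had 20 cells in both control mice and in at least 2 mice of a model, and 51 pairs of a gene and a type were tested in each model. In classical monocytes, the cells that enter inflamed tissue from the blood, 3 of the 9 genes were called in each model, with Cebpb and Spi1 higher and Irf4 lower. The background of called genes was 4.57% of 11811 genes in HFD+F+CCl4 against control and 9.5% in WD+F+CCl4 against control. These cells came from control clusters that mostly held 1 mouse each and from 2 NASH clusters.

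Cebpb was 285 and 403 CPM in classical monocytes of the control mice, 1214, 942 and 1485 CPM in those of the HFD+F+CCl4 mice and 829, 939 and 1220.3 CPM in those of the WD+F+CCl4 mice. The lowest NASH value was above both controls. The difference was 3.77-fold in HFD+F+CCl4 mice (log2 1.91 ± 0.27, edgeR adjusted p = 0.00559) and 3.11-fold in WD+F+CCl4 mice (log2 1.64 ± 0.26, adjusted p = 0.00498). In T and NK cells of the same mice Cebpb was 30.7 and 63.8 CPM in the controls and between 131 and 277 CPM in the NASH mice, each below classical monocytes of the same mouse. Spi1 was 371 and 398 CPM in the control mice, 859, 615 and 799 CPM in the HFD+F+CCl4 mice and 574, 718 and 798 CPM in the WD+F+CCl4 mice, again without overlap (log2 1.03 ± 0.21 and 0.92 ± 0.21, edgeR adjusted p of 0.0273 and 0.0245). Spi1 in T and NK cells was 25.1 and 59.3 CPM in the controls and 98.8 to 229 CPM in the NASH mice, and the part of free RNA in either difference was not tested.

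Irf4 was low in classical monocytes and fell further. It was 49.8 and 47.6 CPM in the control mice, from 72 and 11 UMIs, and 23.5, 14.8 and 8.12 CPM in the HFD+F+CCl4 mice and 6.74, 11.0 and 11.8 CPM in the WD+F+CCl4 mice. The NASH values are within the range of T and NK cells, and the fall was 1.83 ± 0.40 and 2.33 ± 0.38 on the log2 scale (edgeR adjusted p of 0.0311 and 0.00504). Irf8 was 402 and 372 CPM in the control mice and 263 to 295 CPM in the NASH mice, without overlap, but did not pass (log2 -0.45 ± 0.17 and -0.48 ± 0.17, adjusted p of 0.148 and 0.09998). DESeq2 called Irf8 in both models, with an adjusted p of 0.0285 and 0.00953. Without control replicate 1 the calls of Cebpb, Spi1 and Irf4 in classical monocytes were all lost, with 1 control mouse of 207 cells left. Cebpb in both models and Irf4 in the WD+F+CCl4 mice were called when any other single mouse was left out. Spi1 was also lost without control replicate 2, without HFD+F+CCl4 replicate 1 or 3 in that model and without WD+F+CCl4 replicate 2 or 3 in the other, and Irf4 in the HFD+F+CCl4 mice without control replicate 2, WD+F+CCl4 replicate 2 or replicate 2 or 3 of its own model. At the higher clustering resolution Spi1 in the WD+F+CCl4 mice (log2 0.69, adjusted p = 0.0665) and Irf4 in the HFD+F+CCl4 mice (-1.75, 0.0710) were not called either. The plot of classical monocytes sets these values beside T and NK cells.

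**Figure D3:**
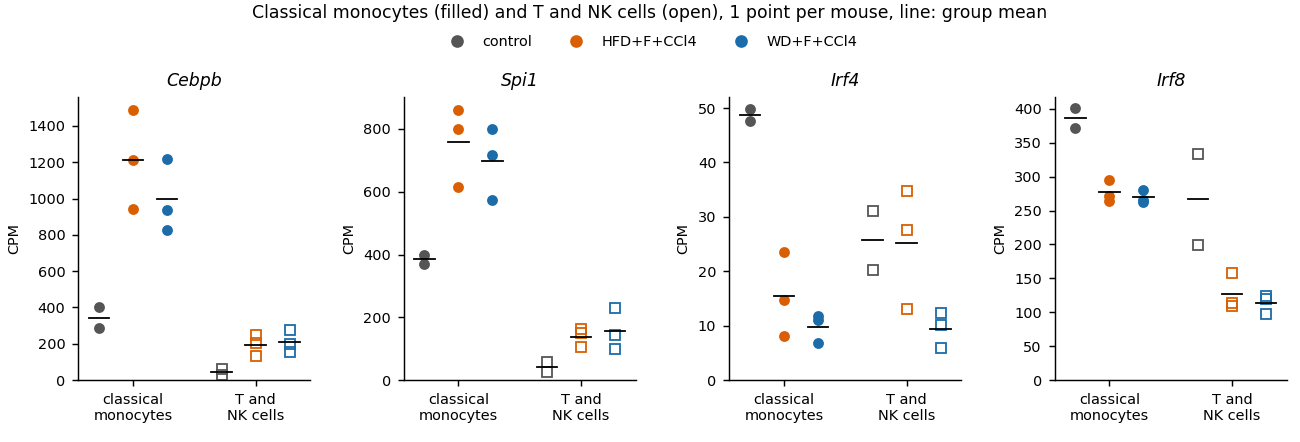
Levels (CPM) of Cebpb, Spi1, Irf4 and Irf8 in classical monocytes (filled points) and in T and NK cells (open points), 1 point per mouse and a line at each group mean. In classical monocytes Cebpb lies at 285 and 403 CPM in the controls and between 829 and 1485 CPM in the NASH mice, while in T and NK cells it stays at or below 277 CPM.

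In type 2 DC, the cells marked by Cd209a, the calls depended on which control cells took the name. In the main clustering Irf8 was 655 and 549 CPM in the control mice, 108, 94.1 and 120.2 CPM in the HFD+F+CCl4 mice and 129, 121 and 155 CPM in the WD+F+CCl4 mice. It fell by 2.35 ± 0.22 and 2.02 ± 0.22 on the log2 scale, with edgeR adjusted p of 0.000214 and 0.000555. Tcf4 went from 710.4 and 366 CPM to 177, 229 and 175 CPM in the HFD+F+CCl4 mice (log2 -1.47 ± 0.28, adjusted p = 0.0193) and 236, 264 and 321 CPM in the WD+F+CCl4 mice (-0.97 ± 0.28, 0.0779). In all, 4 of 9 genes were called in HFD+F+CCl4 mice, where 2.4% of 11280 genes were, and 2 of 9 in WD+F+CCl4 mice, where 4.05% were. The control cells of this name, 102 and 33 in number, also held 179 and 122 CPM of the plasmacytoid marker Siglech and 1174 and 650.2 CPM of Ly6c2, against at most 80.0 and 620.3 CPM in the NASH mice.

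With a higher resolution of the clustering the control cells of the name were 73 and 21, and their Siglech was 0 in both mice. Irf8 was then 146 and 120.4 CPM in the control mice and between 93.0 and 106 CPM in the NASH mice, with log2 differences of -0.43 and -0.37 and edgeR adjusted p of 0.440 and 0.485. Tcf4 was 182 and 181 CPM in the control mice and 133 to 202 CPM in the NASH mice, with a log2 difference of -0.01 and an adjusted p of 0.999 in HFD+F+CCl4 mice. Neither gene was thus called in the narrower set, as the plot of both clusterings shows. Spi1 was 321 and 325 CPM in the main set and 480.1 to 719 CPM in the NASH mice (log2 1.01 ± 0.22 and 0.98 ± 0.22, adjusted p of 0.0329 and 0.0285). In the narrower set its log2 differences were 0.92 and 0.91, with adjusted p of 0.108 and 0.0779. Irf4 was 142 and 60.9 CPM in the control mice, the second from 3 UMIs, and 38.9 to 58.4 CPM in the NASH mice. It fell by 1.27 ± 0.28 in HFD+F+CCl4 mice (edgeR adjusted p = 0.0341), and this difference was 0.18 without control replicate 1. Without this mouse the calls of Irf8, Tcf4 and Spi1 in type 2 DC were lost too, with log2 differences of -1.85, -0.41 and 1.34 in HFD+F+CCl4 mice. Spi1 was lost as well without control replicate 2 and without WD+F+CCl4 replicate 1 or 2 in each model, HFD+F+CCl4 replicate 3 in that model and WD+F+CCl4 replicate 3 in the other, and Irf4 without WD+F+CCl4 replicate 2 or replicate 3 of its own model.

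**Figure D4:**
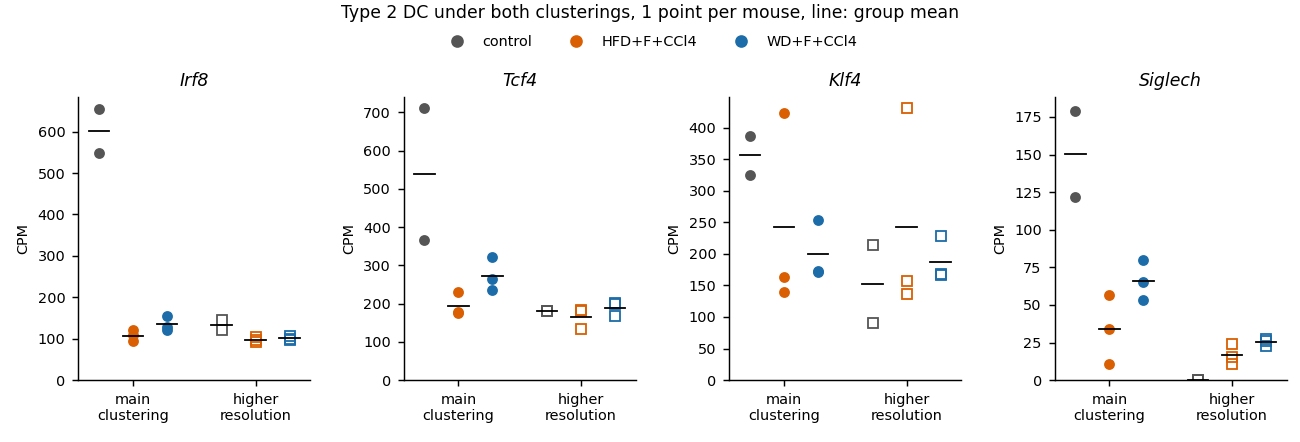
Levels (CPM) of Irf8, Tcf4 and Klf4 and of the plasmacytoid DC marker Siglech in type 2 DC under the main clustering (filled points) and a higher resolution (open points), 1 point per mouse and a line at each group mean. Irf8 of the controls moves from 655 and 549 CPM to 146 and 120.4 CPM between the clusterings as Siglech goes from 179 and 122 CPM to 0, and the NASH mice move little.

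In plasmacytoid DC neither of the 2 leading factors, Irf8 and Tcf4, showed a called difference. Irf8 was 4018 and 3478 CPM in the control mice, 3468, 3487 and 3516 CPM in the HFD+F+CCl4 mice and 2681, 2319.7 and 3458 CPM in the WD+F+CCl4 mice. The log2 differences were -0.13 ± 0.18 and -0.32 ± 0.18, with edgeR adjusted p of 0.867 and 0.397. Tcf4 was 3605 and 2517 CPM in the control mice and 2160.2 to 3178 CPM in the NASH mice, with log2 differences of -0.20 ± 0.20 and -0.27 ± 0.20 and adjusted p of 0.802 and 0.556. A difference smaller than the spread between these mice could not be shown. Cebpb, Spi1 and, in WD+F+CCl4 mice, Klf4 were called, each higher than in the controls, 2 of 8 genes tested in HFD+F+CCl4 mice against 1.75% of all genes and 3 of 8 in WD+F+CCl4 mice against 4.84%. Cebpb was 8.86 and 31.7 CPM in the control mice, from 9 and 6 UMIs, and 77.4 to 331 CPM in the NASH mice. Spi1 was 33.5 and 73.9 CPM against 114 to 318 CPM. Klf4 rested on 4 and 2 UMIs in the control mice and on 73, 70 and 61 UMIs in the WD+F+CCl4 mice. T and NK cells of the NASH mice held 131 to 277 CPM of Cebpb and 98.8 to 229 CPM of Spi1. Lyz2, a monocyte gene, was 70.8 and 607 CPM in plasmacytoid DC of the control mice and 1223 to 3214 CPM in those of the NASH mice, and the part of RNA from other cells in these calls was not tested. With the cells of highest doublet score removed, Cebpb was called in HFD+F+CCl4 mice alone (log2 2.51, edgeR adjusted p = 0.0178) and Spi1 and Klf4 in neither model. All 5 calls were lost without control replicate 1. In HFD+F+CCl4 mice Cebpb was also lost without replicate 2 or 3 of that model, and Spi1 without any mouse of that model or WD+F+CCl4 replicate 1.

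Type 1 DC likewise showed no called difference in Irf8 or Batf3. Irf8 was 2217 and 2274 CPM in the control mice, 2295, 2159.8 and 2077 CPM in the HFD+F+CCl4 mice and 1782, 1903 and 2125 CPM in the WD+F+CCl4 mice, with log2 differences of -0.15 ± 0.17 and -0.30 ± 0.17 and edgeR adjusted p of 0.727 and 0.358. Batf3 was 217 and 239 CPM in the control mice, 293, 317 and 330.3 CPM in the HFD+F+CCl4 mice and 243, 276 and 293 CPM in the WD+F+CCl4 mice. All NASH mice lay above both controls in Batf3, but the log2 differences of 0.37 ± 0.19 and 0.17 ± 0.19 did not pass (adjusted p of 0.329 and 0.683). Of the 7 genes tested, Cebpb alone was called in each model, where 4.19% and 6.55% of 8458 genes were. It went from 4.33 and 19.1 CPM, resting on 3 and 4 UMIs, to 35.2 to 116 CPM. These levels were below those in T and NK cells of each mouse. The part of RNA from other cells in these calls was not tested. Both calls were lost without either control mouse, the first as well on leaving out WD+F+CCl4 replicate 2 or replicate 1 or 3 of its own model, and the second without replicate 1 or 2 of its own model. Irf4 and Spic had too few counts to be tested.

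In Cxcl9 Cxcl10 macrophages and cycling cells, whose control and NASH cells differed in defining markers, the comparison sets different cells side by side. Among Cxcl9 Cxcl10 macrophages Irf4 was 81.0 and 175 CPM in the control mice, from 28 and 7 UMIs, and 2.14 to 17.3 CPM in the NASH mice. Batf3 was 145 and 250.4 CPM against 22.4 to 80.3 CPM. Here 4 of 9 genes were called in HFD+F+CCl4 mice, where 6.04% of 8341 genes were, and 3 of 9 in WD+F+CCl4 mice, where 5.99% were. Irf4 fell by 3.16 ± 0.53 and 3.72 ± 0.59 on the log2 scale (edgeR adjusted p of 0.00139 and 0.00110) and was also called at the higher resolution (-2.19 and -3.80). Batf3, which fell by 1.36 ± 0.34 and 1.26 ± 0.34 (0.0207 and 0.0384), was not called there (0.576 and 0.401). The other calls were Cebpb (log2 0.96) and Tcf4 (-1.11) in HFD+F+CCl4 mice and Maf (1.41) in WD+F+CCl4 mice, and none of the 3 was called at the higher resolution (edgeR adjusted p of 0.381, 0.0541 and 0.530). Of these, Cebpb was called in 2 of the 8 fits with 1 mouse left out, and Tcf4 was not called by DESeq2 (0.117). Among cycling cells Irf8 was 1622 and 1394 CPM in the control mice and 176 to 271 CPM in the NASH mice, and Cebpb 5.06 and 13.9 CPM against 152 to 267 CPM. These Cebpb values of the control mice rested on 2 and 1 UMIs, and 3 counts would be 7.59 and 41.8 CPM. There 3 of 9 genes were called in HFD+F+CCl4 mice (4.6% of 10259 genes) and 5 of 9 in WD+F+CCl4 mice (7.56%), with the Xcr1-bearing cells of the control mice on one side. Without control replicate 1, Irf8 in cycling cells kept its call in each model (log2 -2.34 and -2.40), and every other call within a type was lost.

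Patrolling monocytes could be compared with control replicate 1 alone, since control replicate 2 had 7 such cells, and no test was made. Cebpb was 1115 CPM in this control mouse and between 1508 and 2166 CPM in the NASH mice, and Irf8 was 441 CPM against 163 to 231 CPM. Klf4 was 664 CPM in the control mouse, inside the NASH range of 270 to 918 CPM.

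The last comparison asks whether the 2 NASH models differed in the 9 factors. In WD+F+CCl4 against HFD+F+CCl4, edgeR's quasi-likelihood test called 0 of 102 pairs of a gene and a set of cells, over all MMD cells and the 11 types, and 6 had an unadjusted p under 0.05. Over all genes it called 42 in all sets together, 0.0% of those tested over all MMD cells. The share was 0.48% in Cxcl9 Cxcl10 macrophages, 0.00901% in lipid-associated macrophages, 0.0109% in plasmacytoid DC and 0.0% in every other type. DESeq2 called 1 pair, Batf3 in type 2 DC. It was 116, 100.5 and 119 CPM in the HFD+F+CCl4 mice and 59.7, 56.3 and 69.1 CPM in the WD+F+CCl4 mice, without overlap (log2 -0.86 ± 0.16, adjusted p of 0.203 by edgeR and 0.00732 by DESeq2), and 101 and 81.3 CPM in the control mice. Spic in lipid-associated macrophages had the next lowest edgeR p among pairs that did not overlap. It was 15.5, 13.6 and 12.98 CPM in the HFD+F+CCl4 mice and 5.33, 5.75 and 8.14 CPM in the WD+F+CCl4 mice (log2 -1.17 ± 0.27, adjusted p = 0.413). Both genes were chosen for mention after their values were seen.

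Klf4 varied more between mice of 1 model than between the models. In patrolling monocytes it was 918, 293 and 294 CPM in the HFD+F+CCl4 mice and 270, 314 and 630.2 CPM in the WD+F+CCl4 mice, and in classical monocytes 539.9, 166 and 161 CPM and 108, 169 and 409 CPM. HFD+F+CCl4 replicate 1 and WD+F+CCl4 replicate 3 were the high mice in both types. In C1q macrophages they held 283 and 42.4 CPM against 16.8 to 22.7 CPM in the other NASH mice. T and NK cells of HFD+F+CCl4 replicate 1 held 173 CPM against 19.0 to 56.8 CPM in the other NASH mice. Fos, an immediate early gene, was 1047 and 395 CPM in patrolling monocytes of these 2 mice and 31.7 to 75.8 CPM in those of the other 4 NASH mice, and Hspa1a, a heat shock gene, 1079.5 and 326 CPM against 23.0 to 59.5 CPM. Of the patrolling monocytes of HFD+F+CCl4 replicate 1, 2773 of 2960 were in 1 cluster led by Dusp1, Hspa1b and Hspa1a. The part of these genes in the Klf4 values was not tested.

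**Figure D5:**
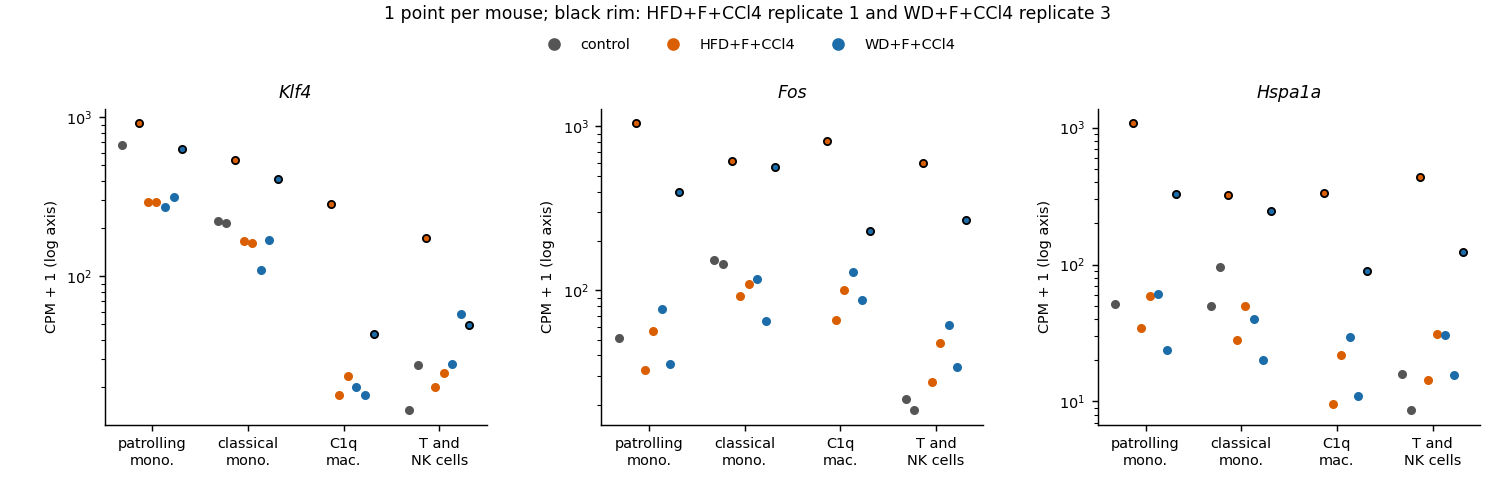
Levels (CPM + 1, log axis) of Klf4, the immediate early gene Fos and the heat shock gene Hspa1a in patrolling monocytes, classical monocytes, C1q macrophages and T and NK cells, 1 point per mouse with at least 20 cells, with a black rim on HFD+F+CCl4 replicate 1 and WD+F+CCl4 replicate 3. In patrolling monocytes these 2 mice lie at 918 and 630.2 CPM of Klf4 and at 1047 and 395 CPM of Fos, above the other 4 NASH mice in both genes.

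Beside the 9 genes, 28 other myeloid transcription factors were tested. Over all MMD cells, where 16.2% and 20.9% of all genes were called, 8 were called higher and 5 lower in HFD+F+CCl4 mice, with a median log2 difference of 0.61 against 0.09 over all genes, and 9 higher and 6 lower in WD+F+CCl4 mice, with a median of 0.44 against 0.07. Nr1h3, the liver X receptor alpha of macrophages, rose by 4.03 ± 0.28 and 3.76 ± 0.28 on the log2 scale (edgeR adjusted p of 0.000246 and 0.000354). Spib and Bcl11a, both known from plasmacytoid DC, fell, Spib by 4.08 ± 0.46 and 3.21 ± 0.44 (0.00136 and 0.00245) and Bcl11a by 2.21 ± 0.27 in both models (0.00176 and 0.00167). In classical monocytes 4 of 28 were higher and 2 lower in HFD+F+CCl4 mice, where 4.57% of all genes were called, and 4 higher and 3 lower in WD+F+CCl4 mice, where 9.5% were. Nr1h3 rose there by 4.03 ± 0.46 and 4.22 ± 0.45 (edgeR adjusted p of 0.00229 and 0.000741), and Spib was lower (-4.02 ± 0.88 and -4.16 ± 0.80, edgeR adjusted p of 0.0309 and 0.0106). The part of free RNA in these differences was not tested.

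The same factors were counted in the other types. In plasmacytoid DC 3 of 24 tested were higher and 1 lower in HFD+F+CCl4 mice, and 5 higher and 1 lower in WD+F+CCl4 mice, with 1.75% and 4.84% of all genes called. In type 1 DC 2 of 23 were higher and 1 lower in the first model and 3 higher and 2 lower in the second (4.19% and 6.55% of all genes). In type 2 DC 4 of 28 were higher in each, with 2 and 1 lower (2.4% and 4.05% of all genes). Nr1h3 was called higher in all 3 DC types of both models. By edgeR, it rose by 3.75 and 4.04 on the log2 scale in plasmacytoid DC, 3.42 and 3.74 in type 1 DC and 3.34 and 3.23 in type 2 DC. It is a macrophage gene, and the part of RNA from other cells in these values was not tested. Spib fell by 0.91 in plasmacytoid DC of HFD+F+CCl4 mice (adjusted p = 0.0310), and Runx2 fell by 2.80 and 2.37 in type 2 DC (0.000214 and 0.000575), whose control cells held Siglech. Irf1, an interferon regulatory factor, fell by 1.37 in type 1 DC of WD+F+CCl4 mice (0.0207). Among Cxcl9 Cxcl10 macrophages 2 of 27 were higher and 4 lower, and 4 higher and 4 lower (6.04% and 5.99% of all genes), with Spib falling by 4.10 and 3.88 and Bcl11a by 3.72 and 3.47. In cycling cells 4 of 27 were higher and 0 lower in HFD+F+CCl4 mice, and 6 higher and 1 lower in WD+F+CCl4 mice (4.6% and 7.56% of all genes). Between the 2 models 1 of these factors was called in any set, Irf7 in Cxcl9 Cxcl10 macrophages, which was higher in WD+F+CCl4 mice (log2 1.36 ± 0.27, edgeR adjusted p = 0.0391).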

How the data were processed

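Livers were perfused through the heart and dissociated whole with collagenase IV, papain and DNase I, and cells were captured with the 10x Chromium 3' chemistry, version 3. The authors deposited 1 matrix of UMI counts for all 8 mice, with the mouse in each barcode's suffix, made with Cell Ranger against GRCm38 after bcl2fastq 2.20. The matrix header and the study's methods name different Cell Ranger versions, and the labels list a human build besides the mouse one. No step corrected for free RNA.

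A barcode was used if it held over 500 genes and its mitochondrial share was below 25%. Cells were clustered with scanpy 1.11.5 and igraph 0.11.9 in Python 3.11.15 (2000 variable genes without the 9 members, 20 neighbours), first all together and then the monocyte, macrophage and DC cells of control and NASH mice apart (20 and 30 components, resolutions 1.5 and 1), and named from marker lists. Counts were summed per mouse and type where a mouse had at least 20 cells. The sums were tested with edgeR 4.0.16 in R 4.3.3 (filterByExpr with a minimum count of 10, TMM, glmQLFit and glmQLFTest on all 3 groups together, Benjamini-Hochberg adjustment over all genes of the set, threshold 0.05), where each group compared had at least 2 mice. DESeq2 1.42.0 was an alternative. Fold changes against few counts depend on the prior count. The scripts were tested on simulated data.

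Total UMIs per library ran from 6135827 to 64855024. Scrublet's own limit called 0 to 8 cells in 6 libraries and 2007 and 409 in WD+F+CCl4 replicates 1 and 3. This limit was not used, no cells were removed as doublets, and as an alternative the highest scores were removed by rank (0.8% per 1000 barcodes). Same-numbered mice did not deviate together (r from -0.488 to 0.0646 over 7 pairs). The deviations of the 2 control mice are mirror images of each other, so this check could hardly show a pairing. Replicate numbers were not used as pairs, and a fit with them as a block was an alternative. For each gene the 3 genes with the highest correlation of log2(CPM + 1) were named, among 5407 genes with at least 50 CPM in the mean of at least 1 type. The 9 members, the 28 other factors and the marker lists were chosen with earlier results of these data known. Beside the members and these genes, up to 4 called genes with the largest fold change among the other factors were eligible to be named in each set and comparison, and marker and stress genes are named where a value turned on them. Some genes that these rules would name are not reported here.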

Additional observations from a re-analysis of the deposited data

Results flagged for a closer look

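In each model, 2 of the 9 genes had all mice of the model on one side of both control mice in some types and on the other side in others (Batf3 and Irf4 in HFD+F+CCl4, Batf3 and Klf4 in WD+F+CCl4 mice). The same held for 19.9% and 20.6% of the 11353 genes tested in 2 or more types, so the share of members is near that of all genes. These differences between types were not tested, and the types of the same name came from different clusters in control and NASH mice.

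Batf3 was higher in type 1 DC, by a log2 fold change of 0.37 in HFD+F+CCl4 and 0.17 in WD+F+CCl4 mice, neither called. It was lower in Cxcl9 Cxcl10 macrophages (-1.36 and -1.26) and cycling cells (-1.82 and -2.24), and in type 2 DC of WD+F+CCl4 mice (-0.55, not called). Irf4 of HFD+F+CCl4 mice had a fitted value of 2.09 in cycling cells (not called), where the control mice held 2 and 1 UMIs and 3 counts in control replicate 2 would be 41.8 CPM, above the highest mouse of the model at 36.9 CPM, so no direction is read there. It was lower in Cxcl9 Cxcl10 macrophages (-3.16), classical monocytes (-1.83) and type 2 DC (-1.27). Klf4 of WD+F+CCl4 mice was higher in plasmacytoid DC (3.29), where the control mice held 4 and 2 UMIs, and in type 1 DC (0.44, not called). It was lower in type 2 DC (-0.74, not called).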

How the results depend on the processing

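The type with the highest median was the same for all 9 genes with high doublet scores removed, with cells of more than 1000 genes and at the higher clustering resolution, the last chosen for these levels after seeing the data. With 1 mouse left out it was the same for 8 to 9 genes, the exception being Maf without HFD+F+CCl4 replicate 1. Over all monocyte, macrophage and DC cells 7 genes were called in each model, and leaving out 1 mouse gave 4 to 7 in HFD+F+CCl4 and 4 to 8 in WD+F+CCl4 mice. With the replicate number as a block, which the data do not show to pair the mice (0 of 8 mice correlated best with their own number), 4 genes were called in HFD+F+CCl4 mice. In the types tested against control, 1.75% to 6.04% of all genes were called in HFD+F+CCl4 mice and 4.05% to 9.5% in WD+F+CCl4 mice. Of the members, 17 of 51 pairs within types were called in each model, all against the same 2 control mice. In HFD+F+CCl4 mice this count was 5 of 24 with at least 50 cells per mouse, 0 of 8 with cells of more than 1000 genes, 10 of 50 at the higher resolution, 8 with the replicate block and 1 to 18 with 1 mouse left out (1 without control replicate 1, 9 without HFD+F+CCl4 replicate 3 and 11 without control replicate 2). In WD+F+CCl4 mice it was 7 of 24, 3 of 8, 13 with the block and 1 to 19 with 1 mouse left out (1 without control replicate 1). The first 2 settings left fewer types with both control mice. Between the models within types, 0 of 93 became 1 by DESeq2 and 5 with every gene of at least 1 count. Of the 48 calls in all, 47 held with DESeq2, 44 with library size alone, 40 with high doublet scores removed, 19 of the 34 within types at the higher clustering resolution, 29 with the block, 10 without control replicate 1 and 32 without control replicate 2. Irf4 in type 2 DC of HFD+F+CCl4 mice went from -1.27 to 0.18 without control replicate 1 (range -1.48 to 0.18 over mice left out). Control replicate 2, with few UMIs, limits what low genes such as Spic and Irf4 can show. Over all genes and all of these cells, 2833 and 3654 genes were called, 1494 and 1991 with the block and 1234 to 2493 and 1757 to 3995 with 1 mouse left out. In classical monocytes 540 and 1122 became 1385 and 2058 without the filter on low counts, and 851 by DESeq2 in HFD+F+CCl4 mice. In type 2 DC 271 and 457 became 72 and 215 at the higher resolution and 0 without control replicate 1.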
